A study of Mus musculus with 32 samples.

Results

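The comparison described here is between parental mouse embryonic stem cells carried for 2 passages in the GSK3 inhibitor CHIR99021 (Chiron) and the same cells left for 72 h in N2B27 without inhibitor. The libraries were chosen by their labels, and they are 6 of the 32 RNA-seq libraries of a study on the exit from naive pluripotency in lines with and without the regulators *Etv5*, *Rbpj* and *Tcf3*. Both groups are RGd2 cells, which carry a destabilised GFP reporter at the *Rex1* (*Zfp42*) locus and no other engineered allele. The first group, CHp2, had Chiron as the only inhibitor and was collected at passage 2, and the second, N72h, had N2B27, a serum-free medium with neither inhibitor nor LIF, for 72 h. Each group holds 3 libraries, 2 of the parental line and 1 of its clonal derivative RGd2-2, so they are cultures of a single genetic background rather than independent cell lines. RGd2 cells at 16 h after 2i withdrawal (N16h) and in 2i (Chiron with the MEK inhibitor PD0325901), also over 5 passages, are quoted as levels only. The groups differ in the inhibitor and also in time and passaging, and these cannot be told apart.

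GSK3, together with Axin and APC, marks beta-catenin for destruction, and inhibition of the kinase, like a Wnt ligand, lets beta-catenin accumulate and act through the TCF/LEF factors on DNA. In ES cells this relieves repression of naive genes by TCF7L1 (also called TCF3), and in the embryo Wnt signalling induces the primitive streak and then the posterior axis, while the anterior neural plate forms where Wnt signalling is low. The comparison therefore sets posterior and mesodermal genes against anterior and neural ones in cells that had left the naive state by a route with, or without, GSK3 inhibition.

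Values are FPKM per library in the order of CHp2 replicates 4, 5 and 6 and of N72h replicates 7, 8 and 9, the last of each being the clonal line. Differences were tested on both sides with edgeR's quasi-likelihood test on counts scaled by the ERCC spike-ins, with Benjamini-Hochberg adjustment over 19037 genes. Log2 fold changes are of CHp2 over N72h and are followed by their standard error. A gene is called higher or lower in CHp2 when its adjusted p is under 0.05 and its mean is at least 1 FPKM in either group. Of 12159 tested genes at or above that level, 2412 (19.8%) were higher and 2091 (17.2%) lower in CHp2, with a median log2 fold change of 0.03. Every count of called list members below is to be read against these shares, also where they are not repeated. Scaled by the spike-ins, the groups did not overlap for 6270 (51.6%) of the 12159 genes, among them 4385 of the 4503 called. A lack of overlap is thus usual for a called gene. The libraries held 12588312 to 38923444 counts on genes, and the N72h clonal library was the deepest. Log2 expression correlated at 0.969 to 0.975 (Pearson, across genes) within CHp2, at 0.981 to 0.986 within N72h and at 0.940 to 0.952 between the groups. Mitochondrial transcripts took 15.7% to 17.0% of the counts in CHp2 and 13.1% to 13.7% in N72h, and their part in the results below was not tested. In these bulk samples, fewer cells of a type and less RNA per cell cannot be told apart.

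Targets of the Wnt pathway come first, since Chiron acts on it, and *Sp5*, *T* and *Axin2* are shown because they are direct or widely used readouts of beta-catenin activity with a promoter in RefSeq. Each sequence runs from 250 bases before to 50 bases after a RefSeq start on GRCm38.p6, the capitals marking matches on either strand to the TCF/LEF letters CTTTG followed by 2 bases that are each A or T.
Sp5, chr2:70474673-70474972, plus strand: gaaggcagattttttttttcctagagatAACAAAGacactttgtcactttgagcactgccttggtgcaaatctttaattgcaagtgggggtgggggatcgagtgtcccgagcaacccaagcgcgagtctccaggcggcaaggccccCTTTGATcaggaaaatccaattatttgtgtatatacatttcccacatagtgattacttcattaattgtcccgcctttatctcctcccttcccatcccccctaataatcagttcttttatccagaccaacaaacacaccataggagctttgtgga
T, chr17:8434173-8434472, plus strand: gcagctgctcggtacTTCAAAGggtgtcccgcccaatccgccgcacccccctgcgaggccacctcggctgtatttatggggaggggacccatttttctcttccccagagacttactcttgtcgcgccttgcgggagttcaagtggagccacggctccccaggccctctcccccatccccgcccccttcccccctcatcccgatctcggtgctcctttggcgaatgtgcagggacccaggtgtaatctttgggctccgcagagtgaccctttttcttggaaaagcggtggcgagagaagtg
Axin2, chr11:108920099-108920398, plus strand: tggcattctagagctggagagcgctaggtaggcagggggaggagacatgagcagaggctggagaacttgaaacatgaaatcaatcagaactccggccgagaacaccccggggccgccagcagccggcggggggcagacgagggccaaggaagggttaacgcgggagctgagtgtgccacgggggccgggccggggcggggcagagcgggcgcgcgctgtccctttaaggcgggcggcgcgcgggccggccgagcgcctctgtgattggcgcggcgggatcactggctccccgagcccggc
The *Sp5* window holds a match on the reverse strand starting at −222 and a forward match at −104 from the start, the *T* window 1 reverse match at −235, and the *Axin2* window no match. Of 22 genes on the list of Wnt feedback and target genes, 13 have a window and 6 of these hold a match in at least 1 window, or 6 of their 22 windows (27.27%). The letters occur in 16.88% of all 32851 RefSeq windows of this length and in 11.19% of those of genes tested at 1 FPKM or more. A match is a description of the sequence and not evidence of a bound site.

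*Sp5*, a zinc finger gene that beta-catenin activates directly, was measured at 16.4, 18.3 and 14 FPKM in CHp2 and 0.0885, 0 and 0.0122 FPKM in N72h (log2 fold change 9.01 ± 0.49, edgeR adjusted p = 7.40e-18). All CHp2 libraries were far above all N72h libraries, 1 of which had no read. *T* (Brachyury), the T-box factor of the primitive streak and notochord, stood at 67.1, 70.8 and 69.4 FPKM in CHp2 and 0.241, 0.0539 and 0.0555 FPKM in N72h (log2 fold change 9.38 ± 0.33, edgeR adjusted p = 2.36e-24). *Axin2*, the scaffold that feeds back on the pathway, had 12.1, 12.8 and 12.6 FPKM in CHp2 and 1.44, 1.34 and 1.58 FPKM in N72h (log2 fold change 3.18 ± 0.15, edgeR adjusted p = 4.64e-20). The groups were far apart for each of these genes and the libraries of a group lay close together. *Lef1*, a DNA-binding partner of beta-catenin, had 14.7, 14.5 and 16.9 FPKM in CHp2 and 5.72, 5.27 and 5.64 FPKM in N72h (log2 fold change 1.55 ± 0.17, edgeR adjusted p = 1.32e-09), again without overlap. *Notum*, which encodes a secreted deacylase that inactivates Wnt ligands, was higher by 4.09 ± 0.23 on the log2 scale (edgeR adjusted p = 2.94e-18). *Sp8*, the paralog of *Sp5*, had 3.22 ± 0.290 FPKM (SD, n = 3) in CHp2 and 0.0921 ± 0.0455 FPKM (SD, n = 3) in N72h (edgeR adjusted p = 2.39e-18).

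Of 22 Wnt feedback and target genes, 18 were tested at 1 FPKM or more, 10 were higher and 1 was lower, beside the 19.8% and 17.2% of all genes, with a median log2 fold change of 0.76 against 0.03 for all genes. The gene that fell was *Nkd2*, an antagonist that binds Dishevelled, with 1.1, 1.29 and 1.64 FPKM in CHp2 and 3.01, 3.09 and 3.13 FPKM in N72h (log2 fold change −1.12 ± 0.23, edgeR adjusted p = 1.52e-04). *Tcf7*, another factor of the TCF family, had 11.7, 12.2 and 11.3 FPKM in CHp2 and 12.3, 12.9 and 14.4 FPKM in N72h and was not called (log2 fold change −0.10 ± 0.13, edgeR adjusted p = 0.629). Its CHp2 libraries lay just below its N72h libraries in FPKM and overlapped them once scaled by the spike-ins, as for *Zcchc12* on the higher side. *Bambi*, *Apcdd1*, *Kremen1* and *Prickle1* overlapped on both scales, and none of these genes was called. *Ccnd1* (cyclin D1), a cell cycle gene often given as a Wnt target, had 37, 37.9 and 36 FPKM in CHp2 and 30.5, 34.1 and 31.2 FPKM in N72h (log2 fold change 0.29 ± 0.12, edgeR adjusted p = 0.0536). All its CHp2 libraries lay above all N72h libraries but the adjusted p missed the threshold.

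Most Wnt ligand genes with a mean of at least 1 FPKM in either group were also higher in CHp2. *Wnt8a*, a ligand of the early streak, had 102, 91.7 and 95.5 FPKM in CHp2 and 0.133, 0.679 and 0.103 FPKM in N72h (log2 fold change 8.71 ± 0.37, edgeR adjusted p = 7.67e-22). Its mean in 2i, where Chiron is present too, was 0.266 FPKM, near the N72h level. *Wnt5b*, a ligand of the caudal streak, had 10.8, 11.5 and 12.3 FPKM in CHp2 and 0.385, 0.611 and 0.523 FPKM in N72h (log2 fold change 4.59 ± 0.29, edgeR adjusted p = 2.66e-16). *Wnt6* and *Wnt3*, the ligand needed to form the streak, were higher by 4.68 ± 0.46 and 2.31 ± 0.29 on the log2 scale. *Wnt9a* was the ligand gene that fell, with 0.382, 0.742 and 0.537 FPKM in CHp2 and 1.56, 1.46 and 1.42 FPKM in N72h (log2 fold change −1.33 ± 0.36, edgeR adjusted p = 0.00401). *Wnt3a*, the ligand of the tail bud, stayed under 1 FPKM in mean with 0.230, 1.06 and 0.619 FPKM in CHp2 and 0, 0.0452 and 0 FPKM in N72h, and 2 N72h libraries had no read of it. Of 19 ligand genes 6 reached 1 FPKM, 4 of them higher, 1 lower. That minimum can be met through the higher group alone, as by *Wnt8a* through CHp2 and *Wnt9a* through N72h. Without it 9 of the 15 tested were higher and 1 lower.

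Receptor genes went both ways. *Fzd10* had 25.4, 26.9 and 24.2 FPKM in CHp2 and 0.829, 0.902 and 1.11 FPKM in N72h (log2 fold change 4.80 ± 0.16, edgeR adjusted p = 2.13e-25). *Ror2*, a receptor tyrosine kinase for non-canonical Wnt ligands, had 12.7 ± 0.505 FPKM (SD, n = 3) in CHp2 and 0.752 ± 0.117 FPKM (SD, n = 3) in N72h (log2 fold change 4.14 ± 0.16, edgeR adjusted p = 2.78e-23). *Fzd7*, the most abundant Frizzled gene of N72h, ran the other way at 15.4, 15.2 and 18.4 FPKM in CHp2 and 47.8, 49 and 48.7 FPKM in N72h (log2 fold change −1.49 ± 0.11, edgeR adjusted p = 4.28e-14). Neither of these Frizzled genes had overlapping groups, and with opposite signs the more abundant Frizzled gene was *Fzd10* in CHp2 and *Fzd7* in N72h. All 15 receptor and co-receptor genes listed reached 1 FPKM, 3 of them higher and 6 lower, beside the 19.8% and 17.2% of all genes. The largest of the other falls were *Ror1* (−1.17 ± 0.17), *Fzd2* (−0.95 ± 0.16) and the co-receptor *Lrp5* (−0.94 ± 0.12). *Fzd6* was higher by 0.83 ± 0.18.

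Among secreted antagonists *Sfrp1*, which sequesters Wnt ligands, had 0.872, 0.954 and 0.959 FPKM in CHp2 and 2.55, 3.29 and 2.77 FPKM in N72h (log2 fold change −1.55 ± 0.17, edgeR adjusted p = 7.90e-10). *Sfrp4*, of the same family, had a log2 fold change of −0.69 ± 0.21, a call lost without CHp2 5 or N72h 7 (edgeR adjusted p up to 0.0840). Of 14 antagonist genes 5 reached 1 FPKM, 3 of them lower, and *Notum*, described above, was the 1 that was higher. Among the TCF/LEF factors and the core of the pathway, *Tcf7l1*, the repressor whose protein is called TCF3, had 2.33, 2.11 and 2.06 FPKM in CHp2 and 5.8, 6.5 and 7.14 FPKM in N72h (log2 fold change −1.51 ± 0.23, edgeR adjusted p = 2.22e-06). Every CHp2 library of *Tcf7l1* was below every N72h library. *Ctnnb1*, which encodes beta-catenin, had 134 ± 3.29 FPKM (SD, n = 3) in CHp2 and 147 ± 4.14 FPKM (SD, n = 3) in N72h. *Gsk3b*, one of the kinase genes that Chiron targets as protein, had 7.32 ± 0.311 FPKM (SD, n = 3) in CHp2 and 9.3 ± 0.316 FPKM (SD, n = 3) in N72h. Neither was called (edgeR adjusted p = 0.743 and 0.0621), nor were *Gsk3a*, *Axin1* and *Apc*. Of 11 genes tested here at 1 FPKM, 1 was higher (*Lef1*) and 2 lower (*Tcf7l1* and *Bcl9*). *Bcl9*, a beta-catenin co-factor, had a log2 fold change of −0.38 ± 0.14 and was not called when CHp2 5, N72h 8 or N72h 9 was left out (edgeR adjusted p up to 0.188).

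**Figure D1:**
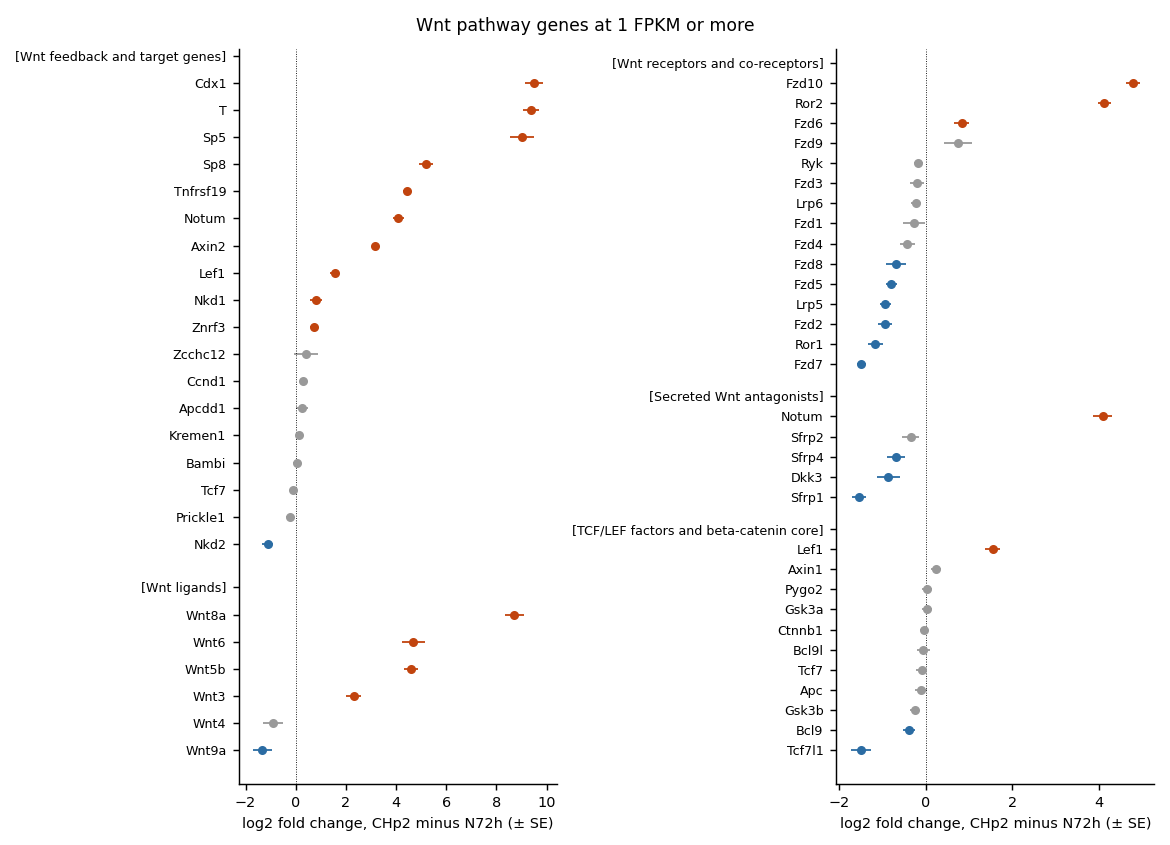
Log2 fold change of CHp2 over N72h, scaled by spike-ins, with its standard error (bars), for Wnt target, ligand, receptor, antagonist and TCF/LEF genes of at least 1 FPKM. Targets and ligands such as *Sp5*, *T* and *Wnt8a* sit at 9.01, 9.38 and 8.71, while *Fzd7*, *Sfrp1* and *Tcf7l1* sit at −1.49, −1.55 and −1.51.

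Primitive streak genes were the next group. *Fgf8*, the FGF ligand that cells of the streak need to migrate, had 20.8, 20.4 and 14.9 FPKM in CHp2 and 0.0688, 0 and 0.0190 FPKM in N72h. All N72h libraries held 3 counts or fewer, and its level was at least 198-fold higher in CHp2 (edgeR adjusted p = 5.89e-17). *Nodal*, the TGF-beta ligand that induces mesendoderm, had 32.4, 31.5 and 34 FPKM in CHp2 and 8.96, 7.86 and 8.13 FPKM in N72h (log2 fold change 2.05 ± 0.11, edgeR adjusted p = 1.36e-18), and its groups did not overlap. *Eomes*, a T-box factor of the anterior streak, had 2.06, 1.82 and 1.83 FPKM in CHp2 and 0.503, 0.540 and 0.631 FPKM in N72h (log2 fold change 1.83 ± 0.25, edgeR adjusted p = 3.00e-07). *Tdgf1*, the Nodal co-receptor, was higher by 0.99 ± 0.12 and *Fgf4* fell by 1.43 ± 0.12 on the log2 scale. Of 16 streak genes 8 reached 1 FPKM, 7 of them higher and 1, *Fgf4*, lower, with a median of 2.18.

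The genes that follow the streak in mesoderm were mostly under 1 FPKM in both groups. *Mixl1*, a homeobox gene of the streak, had 0.658, 0.673 and 0.339 FPKM in CHp2 and 0.142, 0.0272 and 0.157 FPKM in N72h. *Tbx6*, which commits cells to paraxial mesoderm, had 0.396, 0.399 and 0.0861 FPKM in CHp2 and 0.258, 0.346 and 0.242 FPKM in N72h. The *Tbx6* groups overlapped (edgeR adjusted p = 0.830). *Mesp1*, of early cardiac mesoderm, had a mean of 0.108 FPKM in CHp2 and *Msgn1*, of presomitic mesoderm, of 0.0280 FPKM, and neither had a read in N72h. Of 14 paraxial genes 2 reached 1 FPKM and 1, *Tcf15*, was called, with 30.6, 31.1 and 27 FPKM in CHp2 and 5.88, 6.3 and 5.37 FPKM in N72h (log2 fold change 2.43 ± 0.18, edgeR adjusted p = 2.16e-14). *Tcf15* stood at 38.9 FPKM in N16h. Of 18 lateral, cardiac and extraembryonic mesoderm genes 4 reached that level, with *Bmp4* higher and *Gata6* lower. Of 14 endothelial and blood genes 3 did, with *Pecam1* higher and *Tek* lower.

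Genes of the caudal epiblast, where progenitors of spinal cord and paraxial mesoderm reside, were mostly higher among those that reached 1 FPKM. *Cdx1*, a homeobox gene that activates posterior *Hox* genes, had 34.3, 33.4 and 28.7 FPKM in CHp2 and 0.0796, 0.0356 and 0.0294 FPKM in N72h, at least 440.5-fold higher in CHp2 (edgeR adjusted p = 1.15e-23). *Cdx2*, its paralog, had 8.05, 7.69 and 5.29 FPKM in CHp2 and 0.0822, 0.0276 and 0.0114 FPKM in N72h (log2 fold change 7.65 ± 0.49, edgeR adjusted p = 4.81e-16). *Nkx1-2*, a homeobox gene that marks the caudal lateral epiblast, had 36.4, 40.7 and 38.9 FPKM in CHp2 and 0.157, 0.267 and 0.181 FPKM in N72h (log2 fold change 7.72 ± 0.18, edgeR adjusted p = 1.13e-30). All 3 had CHp2 libraries far above the N72h libraries. *Gbx2* (3.11 ± 0.19), which sets the hindbrain side of the border with the midbrain, and *Fgf17* (2.64 ± 0.24), of the *Fgf8* subfamily, were higher as well. Of 17 listed genes 10 reached 1 FPKM, 8 of them higher and 0 lower, with a median of 4.71. *Greb1* and *Sall4* were not called. Of the 7 under that level 2 were higher and 1 lower at an edgeR adjusted p under 0.05. Over all 17, scaled by the spike-ins, the CHp2 libraries lay above the N72h libraries for 10 genes and below them for 3. *Cdx1* is also on the Wnt target list, as is *T* of the streak list, so the counts of these lists share genes.

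Part of these genes were already high in 2i and part were not. *Nkx1-2* had 42.2, 43 and 44.5 FPKM in the 2i libraries, *Cdx1* 18.3, 18.8 and 29.6, *Axin2* 19.5, 17.6 and 22.9 and *Fzd10* 20.9, 21.4 and 25.7. For these genes N72h was the low group and CHp2 stood at 89.5%, 144%, 62.5% and 113% of the 2i mean. *T* had 5.95, 4.98 and 3.25 FPKM in 2i, *Fgf8* 0.180, 0.246 and 0 and *Wnt8a* 0.402, 0.302 and 0.0957, all below every CHp2 library. These are levels scaled by library totals, quoted as a description.

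**Figure D2:**
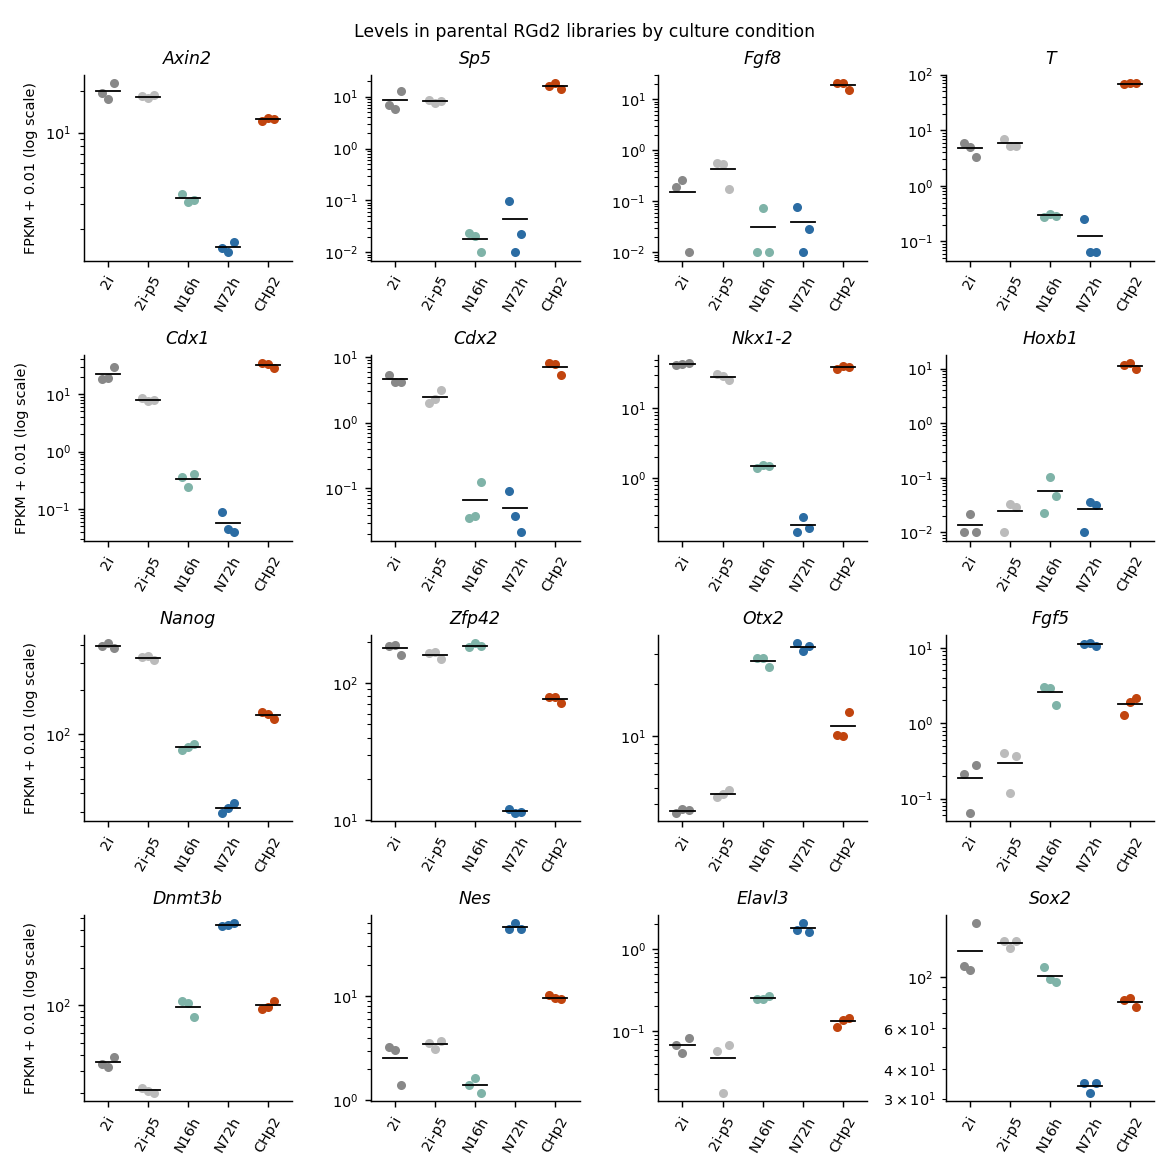
FPKM plus 0.01 on a log axis for 16 genes in each library (points) of RGd2 cells in CHp2, N72h, N16h, 2i and 2i over 5 passages. *Axin2*, *Sp5*, *Cdx1* and *Nkx1-2* are low in N72h and higher in both 2i and CHp2, *T*, *Fgf8* and *Hoxb1* are highest in CHp2, and *Fgf5*, *Dnmt3b*, *Nes* and *Elavl3* are highest in N72h.

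The *Hox* genes lie in 4 clusters in the order of the body axis they pattern, paralog group 1 being the most anterior. Calls fell in groups 1, 2, 5 and 7 of the a and b clusters, with none beyond group 2 in the b cluster. *Hoxb1* (chr11:96365752-96368256), which patterns the hindbrain, had 11.6, 12.6 and 9.9 FPKM in CHp2 and 0, 0.0269 and 0.0221 FPKM in N72h, at least 206-fold higher in CHp2 (edgeR adjusted p = 4.50e-17). *Hoxb2*, *Hoxa5* and *Hoxa2* were at least 102-fold, 45.8-fold and 17.1-fold higher, their N72h libraries having 3 counts or fewer. *Hoxa7* had 1.13, 1.2 and 1.11 FPKM in CHp2 and 0.0646, 0.0650 and 0.0447 FPKM in N72h (log2 fold change 4.42 ± 0.50, edgeR adjusted p = 2.48e-09). No N72h library reached a CHp2 library for any of these 5 genes. Of 39 *Hox* genes 23 could be tested, 6 reached 1 FPKM and all 6 were higher; without the FPKM minimum 17 were higher and none was lower. None of the 16 genes of paralog groups 9 to 13 reached 1 FPKM, so none was called. Without that minimum *Hoxb9* (log2 fold change 4.07 ± 0.59, edgeR adjusted p = 6.7e-07), *Hoxd9*, *Hoxa9* and *Hoxb13* were among the higher genes, at low counts.

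**Figure D3:**
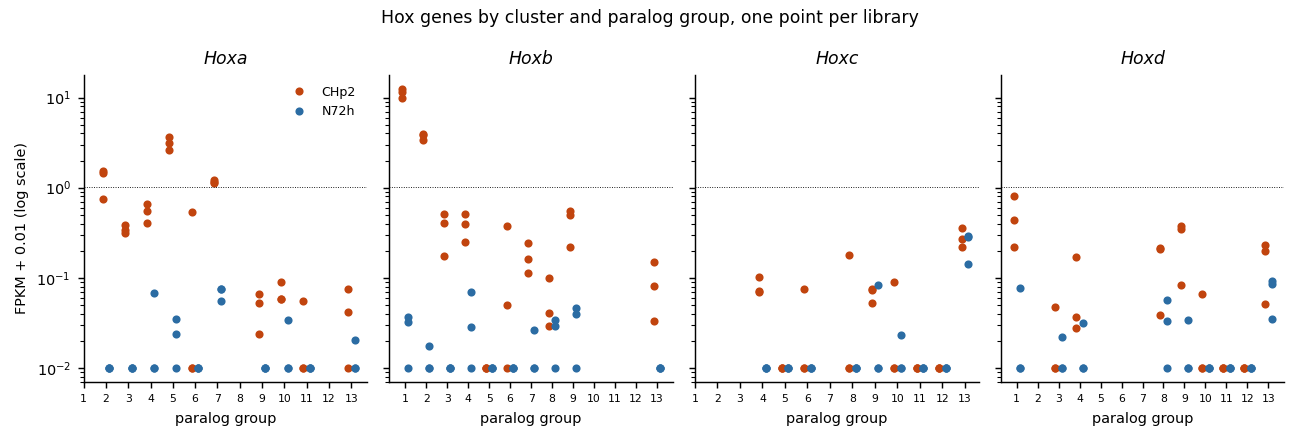
FPKM plus 0.01 on a log axis by paralog group for *Hox* genes of the 4 clusters in each library, with a dotted line at 1 FPKM. All CHp2 libraries pass the line for *Hoxa5*, *Hoxa7*, *Hoxb1* and *Hoxb2* and 2 of 3 for *Hoxa2*, and N72h libraries stay below it for all *Hox* genes drawn.

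Anterior genes gave a divided picture, resting on few expressed genes. *Otx2*, a homeobox factor of the epiblast and later of forebrain and midbrain, had 10.2, 10.04 and 13.9 FPKM in CHp2 and 34.7, 31.2 and 33.5 FPKM in N72h (log2 fold change −1.47 ± 0.12, edgeR adjusted p = 5.25e-13). Every CHp2 library of *Otx2* was below every N72h library and above the 2i mean of 3.67 FPKM. *Six3* and *Hesx1*, of the anterior neural plate, had means of 0 FPKM in CHp2 and 0.00763 FPKM in N72h and of 0.0301 FPKM in CHp2 and 0.101 FPKM in N72h. *Pax6*, a factor of forebrain and eye, had 0.167 FPKM in CHp2 and 0.118 FPKM in N72h. These genes were thus near 0 in both groups, N72h included. Of 22 listed genes 3 reached 1 FPKM, and the other 2 were higher in CHp2. *Foxb1*, a forkhead gene of caudal midbrain, hypothalamus and spinal cord, had 5.35, 6.97 and 6.43 FPKM in CHp2 and 0.0779, 0.0209 and 0.0517 FPKM in N72h (log2 fold change 6.94 ± 0.46, edgeR adjusted p = 3.77e-15). *En2*, of midbrain and anterior hindbrain, had 2.19 ± 0.418 FPKM (SD, n = 3) in CHp2 and 0.445 ± 0.143 FPKM (SD, n = 3) in N72h (log2 fold change 2.43 ± 0.27, edgeR adjusted p = 1.77e-09). The median log2 fold change of the list was 0.56 over its 11 tested members and 2.43 over the 3 at 1 FPKM. Of 18 hindbrain and spinal cord genes 2 reached 1 FPKM, *Gbx2* and *Hoxb1*, both described above.

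Neural progenitor genes split. *Nes*, the intermediate filament nestin, had 10.2, 9.5 and 9.31 FPKM in CHp2 and 43.8, 49.7 and 44.2 FPKM in N72h (log2 fold change −2.17 ± 0.17, edgeR adjusted p = 3.25e-13). *Pou3f1* (Oct6), a POU factor of the late epiblast and neural plate, had 4.25, 4.83 and 4.52 FPKM in CHp2 and 18, 18.8 and 16.3 FPKM in N72h (log2 fold change −1.89 ± 0.23, edgeR adjusted p = 1.43e-08). Both were lower in CHp2 without overlap, as were *Ncam1* (−1.53 ± 0.21), a cell adhesion molecule, and *Zic5* (−1.26 ± 0.10), a zinc finger factor. *Sox2*, shared by pluripotent and neural cells, was higher, with 79.2, 81 and 73.8 FPKM in CHp2 and 35.1, 31.8 and 35 FPKM in N72h (log2 fold change 1.28 ± 0.12, edgeR adjusted p = 1.32e-11). The imprinted zinc finger gene *Plagl1* (3.97 ± 0.45) was higher too. *Cdh2* (N-cadherin, 0.88 ± 0.20) was called higher although its clonal CHp2 library, at 1.31 FPKM, lay just above the highest N72h library and the groups overlapped on the spike-in scale. *Sox1*, an early neural gene, stayed under 1 FPKM with 0.690, 0.927 and 0.707 FPKM in CHp2 and 0.346, 0.426 and 0.457 FPKM in N72h. *Sox3*, a related factor, had 1.89, 3.44 and 2.63 FPKM in CHp2 and 4.79, 3.87 and 3.92 FPKM in N72h (log2 fold change −0.57 ± 0.33, edgeR adjusted p = 0.198), not called. In a fit of the 6 libraries alone *Sox3* was called lower (edgeR adjusted p = 0.00902), and likewise with the clonal line as replicate block. Of 13 neural progenitor genes at 1 FPKM 4 were higher and 5 lower, with a median of −0.38. With no FPKM minimum 7 were higher and 5 lower, and the median over all 20 tested members was −0.03.

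Genes of neurogenesis and neurons that reached 1 FPKM were mainly lower in CHp2. *Elavl3* (HuC), an RNA-binding protein of new neurons, had 0.104, 0.127 and 0.135 FPKM in CHp2 and 1.71, 2.03 and 1.58 FPKM in N72h (log2 fold change −3.77 ± 0.39, edgeR adjusted p = 3.05e-10). *Neurod1*, a bHLH factor of neuronal differentiation, had 0.233, 0.245 and 0.541 FPKM in CHp2 and 4.46, 4.16 and 4.17 FPKM in N72h (log2 fold change −3.61 ± 0.31, edgeR adjusted p = 2.35e-12). For *Neurod1* all CHp2 libraries were below 1 FPKM and all N72h libraries above 4 FPKM. *Tubb3*, neuronal beta-tubulin, had 11.5, 10.3 and 10.6 FPKM in CHp2 and 37, 42.1 and 32.3 FPKM in N72h (log2 fold change −1.70 ± 0.12, edgeR adjusted p = 1.61e-14). In 2i *Tubb3* averaged 48.6 FPKM. *Hes6*, which promotes neuronal differentiation, fell by 1.13 ± 0.13 on the log2 scale. *Pou4f1* (Brn3a, a sensory neuron factor) was the member that was higher (0.97 ± 0.23). Of 28 genes 9 reached 1 FPKM, 1 higher and 5 lower, among these *Dll1*, whose call was lost on leaving out any 1 library (edgeR adjusted p from 0.0578 to 0.122). Among the members under that level 3 were higher and 1 lower at an edgeR adjusted p under 0.05. *Neurog1*, *Neurog2* and *Dcx*, which drive or mark neurogenesis, were under 1 FPKM in both groups.

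**Figure D4:**
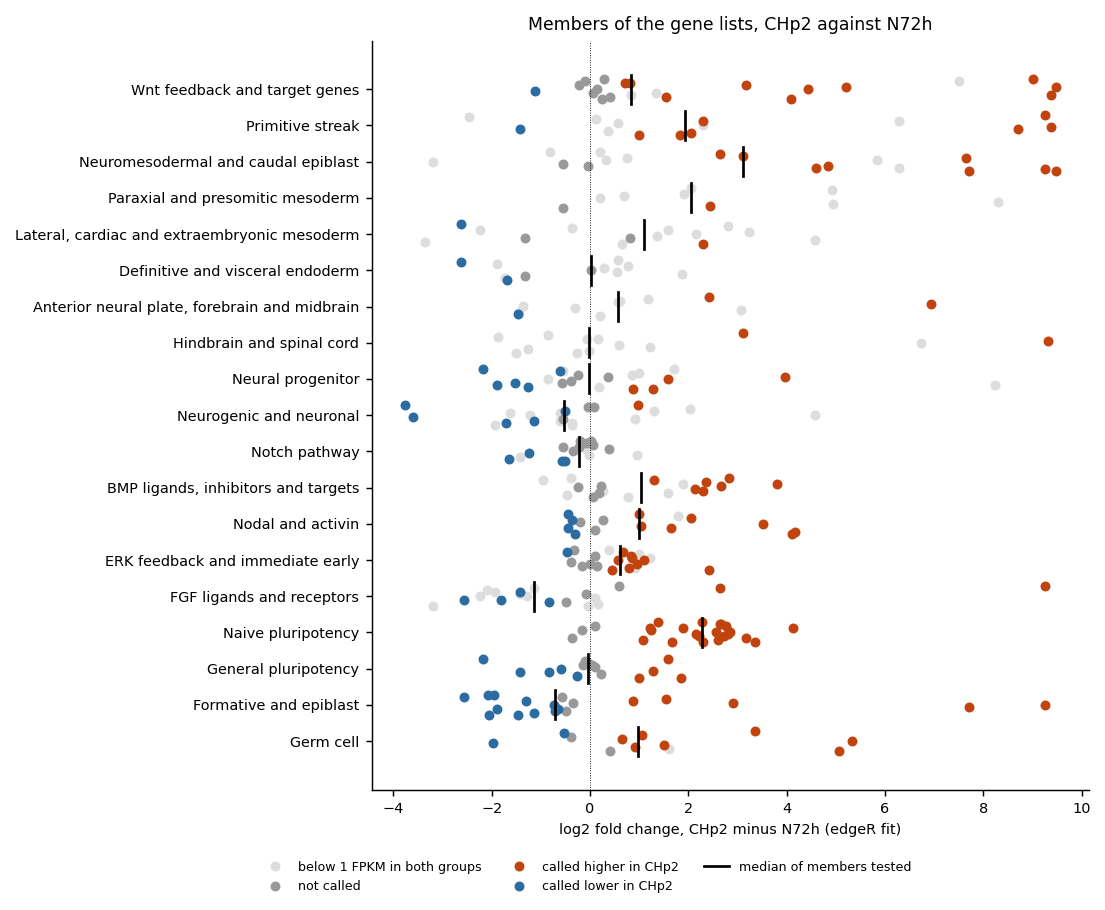
Log2 fold change of CHp2 over N72h for the tested members (points) of 19 gene lists, with calls in orange (higher) and blue (lower), uncalled genes in dark grey, genes under 1 FPKM in light grey and a black bar at the median of all tested members. Caudal epiblast, streak and naive lists lie mostly above 0, formative and neuronal lists mostly below. Some genes are drawn in more than 1 list, such as *T* (Wnt target and streak) and *Cdx1* (Wnt target and caudal).

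Naive pluripotency genes were higher in CHp2 than in N72h. *Nanog*, a core homeobox factor of the naive state, had 142, 136 and 128 FPKM in CHp2 and 29.7, 31.8 and 34.2 FPKM in N72h (log2 fold change 2.16 ± 0.11, edgeR adjusted p = 1.38e-19). The 2i libraries had 391, 410.3 and 379 FPKM. *Zfp42* (Rex1), whose locus also carries the GFP reporter, had 79.8, 79.1 and 71.9 FPKM in CHp2 and 12, 11.4 and 11.5 FPKM in N72h (log2 fold change 2.81 ± 0.12, edgeR adjusted p = 3.40e-21). Its 2i libraries had 187, 190.2 and 159.8 FPKM. For both genes each CHp2 library lay between the N72h and the 2i libraries, with no overlap. *Esrrb* (2.73 ± 0.12), an orphan nuclear receptor and known target of TCF7L1 repression, and *Klf4* (2.57 ± 0.17) were higher as well. *Nr5a2* (4.13 ± 0.15), *Dppa3* (3.36 ± 0.47), *Tbx3* (3.18 ± 0.19) and *Tdh* (2.85 ± 0.12), a threonine dehydrogenase of ES cells, had the largest differences.

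Of 24 naive genes all reached 1 FPKM, 21 were higher and none was lower, with a median log2 fold change of 2.29. The uncalled ones were *Lifr* and *Stat3*, which carry the LIF signal, and *Jak3*. *Lifr* had 3.6 FPKM in CHp2 and 3.53 FPKM in N72h, *Stat3* 3.39 FPKM in CHp2 and 4.05 FPKM in N72h. *Jak3* had 1.42 FPKM in CHp2 and 1.94 FPKM in N72h. The median naive gene stood at 41.2% of its 2i mean in CHp2 and at 8.54% in N72h, and in CHp2 20 of 24 lay below all 2i libraries, and 18 lay between the 2i and the N72h libraries. The CHp2 cells, described as having left the naive state, thus held naive transcripts at intermediate levels.

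Formative and epiblast genes, which rise as naive cells mature toward the postimplantation epiblast, were mainly lower. *Fgf5*, a classical epiblast marker, had 1.27, 1.91 and 2.14 FPKM in CHp2 and 11.3, 11.4 and 10.6 FPKM in N72h (log2 fold change −2.56 ± 0.30, edgeR adjusted p = 4.45e-09). *Dnmt3b*, a de novo DNA methyltransferase, had 94.4, 96.9 and 109 FPKM in CHp2 and 436, 443 and 455 FPKM in N72h (log2 fold change −2.07 ± 0.13, edgeR adjusted p = 1.03e-16), its 2i mean being 35 FPKM. *Car4* (−2.06 ± 0.29), a carbonic anhydrase, and *Sall2* (−1.96 ± 0.14) were lower too, all without overlap between groups. *Dnmt3l*, the co-factor of the methyltransferases, was higher at 68.8, 59.1 and 61.2 FPKM in CHp2 and 9.49, 8.24 and 8.95 FPKM in N72h (log2 fold change 2.91 ± 0.15, edgeR adjusted p = 6.70e-19), with 127 FPKM in N16h. The opposite signs of *Dnmt3b* and *Dnmt3l* left CHp2 with the higher level of the co-factor and the lower level of the enzyme. Of 19 formative genes 11 were lower and 5 higher, with a median of −0.72; besides *Dnmt3l* the higher ones were *Lef1*, *Cdh2*, *Nkx1-2* and *Fgf8*, 4 genes that other lists here hold as Wnt, neural or caudal. In CHp2 15 of 19 nevertheless lay above all 2i libraries, the median gene at 285.49% of its 2i mean, against 516.27% in N72h.

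General pluripotency genes showed no common direction, with 4 of 15 higher and 5 lower. *Pou5f1* (Oct4) had 255, 254 and 306 FPKM in CHp2 and 349.6, 335 and 344 FPKM in N72h (log2 fold change −0.26 ± 0.09, edgeR adjusted p = 0.0276). This small difference was not called without CHp2 4, CHp2 5, N72h 8 or N72h 9 (edgeR adjusted p up to 0.165). *Dppa2* (1.85 ± 0.10), a chromatin factor of pluripotent cells, was higher, and *Foxd3* (−2.18 ± 0.29), a forkhead factor, *Utf1* (−0.83 ± 0.16) and *Lin28b* (−0.59 ± 0.17), which blocks let-7 processing, were lower. Among germ cell genes 7 of 11 were higher and 2 lower. *Tfap2c*, an AP-2 factor of primordial germ cells, trophoblast and surface ectoderm, had 20.02, 21.1 and 16.9 FPKM in CHp2 and 0.631, 0.559 and 0.635 FPKM in N72h (log2 fold change 5.06 ± 0.19, edgeR adjusted p = 6.69e-24). *Nanos3*, which protects primordial germ cells, had 9.65 ± 0.995 FPKM (SD, n = 3) in CHp2 and 0.229 ± 0.0942 FPKM (SD, n = 3) in N72h (log2 fold change 5.33 ± 0.42, edgeR adjusted p = 1.62e-13). *Sycp3*, of the synaptonemal complex, fell by 1.98 ± 0.19.

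**Figure D5:**
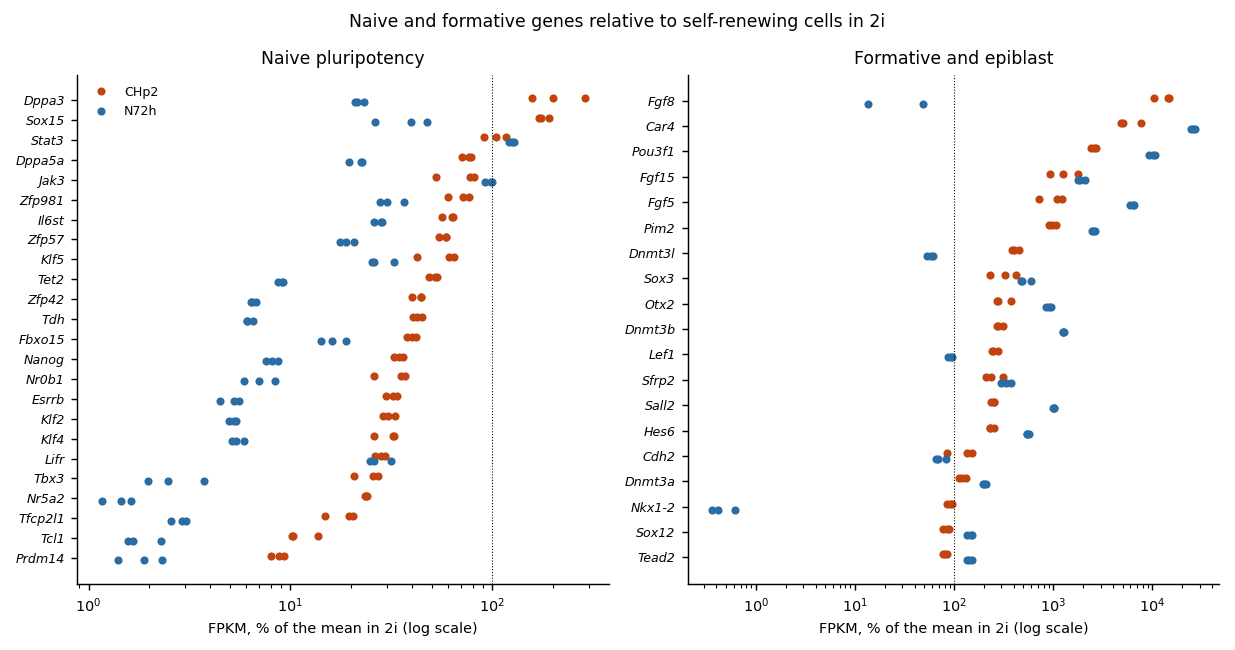
FPKM as a percent of the gene's 2i mean (dotted line at 100%), on a log axis, for naive and for formative genes in each CHp2 and N72h library (points); the N72h library with no read of *Fgf8* is not drawn. Naive genes sit in CHp2 between 2i and N72h for 18 of 24, and 15 of 19 formative genes lie above 2i in CHp2, most of them under their N72h level.

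Other signalling pathways differed in direction from list to list. In the Nodal pathway *Lefty1*, an inhibitor that Nodal itself induces, had 147, 163 and 129 FPKM in CHp2 and 14.3, 14.3 and 12.2 FPKM in N72h (log2 fold change 3.52 ± 0.17, edgeR adjusted p = 6.00e-20). *Lefty2*, its neighbour and paralog, had 53.4, 55.6 and 34.7 FPKM in CHp2 and 3.19, 2.65 and 2.67 FPKM in N72h (log2 fold change 4.18 ± 0.20, edgeR adjusted p = 5.34e-20). Both inhibitors had CHp2 far above N72h and no overlap. The type II receptor *Acvr2b* (−0.45 ± 0.12), the co-factor *Foxh1* (−0.46 ± 0.12) and the co-repressor *Skil* (−0.36 ± 0.11) were lower by small amounts, the *Skil* call being lost without CHp2 5 or N72h 8 (edgeR adjusted p up to 0.0744). In all 7 of 14 Nodal and activin genes were higher and 4 lower. In the BMP pathway *Id3*, a direct BMP target that blocks bHLH factors, had 13.8, 12.5 and 9.84 FPKM in CHp2 and 1.12, 0.870 and 0.818 FPKM in N72h (log2 fold change 3.80 ± 0.19, edgeR adjusted p = 2.96e-19). *Bmp4* (2.29 ± 0.20), the ligand, *Fst* (2.36 ± 0.24), which binds activin and BMP, and the homeobox targets *Msx1* (2.83 ± 0.50) and *Msx2* (2.67 ± 0.28) were higher too. Of 11 BMP genes 7 were higher and 0 lower.

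Among feedback and immediate early genes of ERK signalling 9 of 16 were higher and 1 lower. *Il17rd* (Sef), an inhibitor of FGF signalling, had 30.2, 30.2 and 25 FPKM in CHp2 and 5.58, 5.44 and 5.85 FPKM in N72h (log2 fold change 2.42 ± 0.11, edgeR adjusted p = 1.04e-20). *Spry2*, a Sprouty inhibitor, was higher by 1.10 ± 0.16 and *Spred1* by 0.86 ± 0.12, and *Myc* by 0.95 ± 0.16. *Dusp6*, the ERK phosphatase, had 32.7, 35.6 and 31.3 FPKM in CHp2 and 36.9, 34.9 and 33.9 FPKM in N72h and was not called (edgeR adjusted p = 0.994). *Spry1* fell by 0.48 ± 0.16, a call lost without CHp2 5, N72h 8 or N72h 9 (edgeR adjusted p up to 0.106). FGF ligands ran in both directions, *Fgf8* and *Fgf17* being higher and *Fgf4*, *Fgf5*, *Fgf11* and the receptor *Fgfr2* lower among 9 genes at 1 FPKM. Notch pathway genes were lower in 4 of 12 and higher in none, among them the modifier *Lfng* (−1.65 ± 0.31) and the receptors *Notch1* (−1.24 ± 0.12) and *Notch2* (−0.57 ± 0.11), with *Dll1* as the weakest call. *Notch1* had 2.75, 3.03 and 3.07 FPKM in CHp2 and 7.36, 7.2 and 7.44 FPKM in N72h, with groups that did not overlap. In the Hedgehog pathway 3 of 10 were higher and 2 lower, beside the 19.8% and 17.2% of all genes. The higher ones included *Gli1* (1.15 ± 0.23) and *Gli2*, whose call was lost without CHp2 4 (edgeR adjusted p = 0.127). The lower ones were the co-receptor *Boc* (−1.06 ± 0.25) and the transducer *Smo* (−0.42 ± 0.13, lost without CHp2 6 or N72h 8, edgeR adjusted p up to 0.0619).

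In the retinoic acid pathway, which posteriorises the neural plate, 5 of 10 genes were higher and 2 lower. *Stra8*, a retinoid-induced gene, had 2.69, 2.03 and 2.54 FPKM in CHp2 and 0, 0.0346 and 0.0427 FPKM in N72h, at least 34.2-fold higher (edgeR adjusted p = 1.73e-14). *Meis2*, a *Hox* co-factor, had 4.1 ± 0.176 FPKM (SD, n = 3) in CHp2 and 0.0626 ± 0.0394 FPKM (SD, n = 3) in N72h (log2 fold change 6.08 ± 0.38, edgeR adjusted p = 1.51e-16). *Stra8* averaged 18.9 FPKM in N16h and 4.62 FPKM in 2i, so N72h was again the low group. *Dhrs3*, which turns retinal back to retinol, fell by 1.35 ± 0.23. *Aldh1a2*, the enzyme that makes retinoic acid in mesoderm, and *Cyp26a1*, which degrades it, were under 1 FPKM in both groups. *Crabp2* was lower (−0.75 ± 0.29), a call that was lost on leaving out any of 5 single libraries (edgeR adjusted p up to 0.163).

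Genes of other cell types that the cultures could hold were examined for the whole lists. Among 10 epithelial genes at 1 FPKM 6 were higher and 2 lower. *Krt18*, a keratin of simple epithelia, had 59.7, 58.5 and 42.9 FPKM in CHp2 and 114, 119.7 and 119 FPKM in N72h (log2 fold change −1.04 ± 0.18, edgeR adjusted p = 1.23e-05). *Grhl3*, of surface ectoderm, was higher by 2.09 ± 0.18, and *Trp63*, *Krt5* and *Krt14*, which define stratified epithelium, were under 1 FPKM in both groups. Among 13 trophoblast genes 5 reached 1 FPKM and 4 were higher. These were *Cdx2*, *Tfap2c*, *Eomes* and *Rhox6*, the first 3 of which other lists hold and the last of which was not called without CHp2 5 (edgeR adjusted p = 0.139). *Elf5*, *Gata3* and *Hand1*, which define the lineage, were under 1 FPKM. Among 14 endoderm genes 4 reached 1 FPKM, none higher and 2 lower, *Amn* and *Gata6*. *Gata6*, a factor of primitive endoderm, had 0.0746, 0.177 and 0.462 FPKM in CHp2 and 0.625, 1.02 and 2.78 FPKM in N72h, the clonal line being highest in both groups. Its call was lost without N72h 9, CHp2 4 or CHp2 5 (edgeR adjusted p up to 0.171), as was that of *Amn* without N72h 9 (edgeR adjusted p = 0.0738). *Ttr*, *Afp* and *Apoa1*, which define visceral endoderm, were under 1 FPKM in both groups. Among 16 neural crest and placode genes 5 reached 1 FPKM, *Msx1* and *Msx2* being higher and *Foxd3* lower, and *Sox10* stayed under 1 FPKM.

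Adhesion genes changed modestly. *Cdh1* (E-cadherin) had 84.6, 80.7 and 81.2 FPKM in CHp2 and 159.9, 175 and 166 FPKM in N72h (log2 fold change −0.94 ± 0.12, edgeR adjusted p = 2.45e-08). *Cldn7*, a tight junction claudin, fell by 1.01 ± 0.20, while the matrix gene *Fn1* was higher by 0.90 ± 0.14 and *Vim*, the mesenchymal filament, by 0.49 ± 0.13. Of 15 genes 3 were higher and 6 lower, beside the 19.8% and 17.2% of all genes. *Snai1*, *Snai2*, *Zeb1* and *Twist2*, which drive epithelial-mesenchymal transition, were under 1 FPKM. Of 12 p53 targets 3 were higher and 3 lower, beside the 19.8% and 17.2% of all genes. The call of *Ccng1* (log2 fold change −0.25) was lost on leaving out any 1 library (edgeR adjusted p from 0.0708 to 0.158). That of *Bax* (0.31) was lost on leaving out any of 4 single libraries (edgeR adjusted p up to 0.142). *Cdkn1a* (p21), a cell cycle inhibitor, had 34.5, 32 and 30.5 FPKM in CHp2 and 8.99, 7.74 and 8.7 FPKM in N72h (log2 fold change 2.02 ± 0.15, edgeR adjusted p = 3.84e-14), and *Bbc3* (Puma), a death gene, fell by 1.01 ± 0.19.

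Genes were also ranked over the whole table by the fitted log2 fold change, which depends on the fit where a group is near 0 counts. The largest changes upward among genes with at least 10 counts in each CHp2 library were those of *Arg1* (arginase, at least 34.8-fold higher), *Olig3* (a bHLH factor of the dorsal neural tube, at least 25.1-fold), *Krt23* (a keratin, at least 14.8-fold) and *Sprr2a1* and *Sprr2a3*, beside *Cdx1*, *T*, *Fgf8*, *Sp5*, *Hoxb1*, *Hoxb2* and *Hoxa2*. *Sprr2a1* and *Sprr2a3* are near-identical copies whose unique reads may be split between them, so their values are uncertain. *Olig3* had 1.96, 1.34 and 1.31 FPKM in CHp2 and 0, 0 and 0 FPKM in N72h, and no N72h library had a read. The largest changes downward were those of *Il10*, *Spon1* (−5.38 ± 0.45, an extracellular matrix protein of the floor plate), *Fbp1* (at least 19.4-fold lower, an enzyme of gluconeogenesis), *Cubn*, *Enpp2*, *Igsf21*, *Slc35d3*, *Klhl14*, *Tubb4a*, *Elavl3* and the precursors *Mir302b* and *Mir367*. *Enpp2* (autotaxin), which makes lysophosphatidic acid, had 1.44, 1.41 and 2.53 FPKM in CHp2 and 33.2, 34 and 30.6 FPKM in N72h (log2 fold change −4.13 ± 0.21, edgeR adjusted p = 3.15e-19). *Tubb4a*, a beta-tubulin of neural cells, had 0.611 ± 0.117 FPKM (SD, n = 3) in CHp2 and 9.54 ± 1.28 FPKM (SD, n = 3) in N72h (log2 fold change −3.90 ± 0.30, edgeR adjusted p = 1.38e-13). The largest differences of mean FPKM upward were in *mt-Rnr2*, *mt-Co1*, *mt-Nd1*, *Dppa5a* (1159 FPKM in CHp2 and 330.0 FPKM in N72h) and the metallothionein *Mt2* (622 FPKM in CHp2 and 220.1 FPKM in N72h). Downward they were in *Dnmt3b*, *Mif*, *Hist1h2af*, *Tuba1a* and the glucose transporter *Slc2a1* (128 FPKM in CHp2 and 294 FPKM in N72h). *mt-Rnr2* is a ribosomal RNA, the class the depletion removes, and its call, like that of *Hist1h2af* without CHp2 5 (edgeR adjusted p = 0.105), was lost on leaving out some single libraries (up to 0.107).

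*Mir302b* and *Mir367* belong to the miR-302/367 cluster, a set of microRNAs of the epiblast on chromosome 3, and are shown for their mature 3p arms from RefSeq (GRCm38.p6), the capitals marking the seed, bases 2 to 8. The seeds of the 2 miRNAs differ.
mmu-miR-302b-3p, chr3:127545275-127545297, plus strand: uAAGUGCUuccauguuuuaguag
mmu-miR-367-3p, chr3:127545779-127545800, plus strand: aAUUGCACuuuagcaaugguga
*Mir302b* had 0, 1 and 0 counts in the CHp2 libraries and 19, 14 and 18 in the N72h libraries, at least 3.34-fold lower in CHp2 (edgeR adjusted p = 0.00212). *Mir367* had 0, 0 and 0 counts against 11, 12 and 17, at least 2.57-fold lower (edgeR adjusted p = 0.00124). These are fragments of the precursor locus in a total RNA library and do not measure the mature miRNAs, and the counts are low.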

How the data were processed

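RNA-seq libraries of RGd2 ES cells were analyzed, 3 in CHp2 and 3 in N72h, in a model with all 32 libraries of the series. The authors depleted total RNA of ribosomal RNA with Ribo-Zero probes, added ERCC spike-ins and made directional paired-end libraries; the sample labels call the molecule polyA RNA. The counts are raw counts per gene and spike-in as the authors deposited them, from reads trimmed with Trim Galore, aligned with TopHat2 to GRCm38/mm10 with Gencode gene models and counted by strand with featureCounts (unique primary matches); tool versions are not given in the sources used here. FPKM were computed here from the deposited counts and gene lengths and scaled by each library's gene total, whereas fold changes are scaled by the spike-ins.

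Libraries were scaled by median-of-ratios factors from the 52 of 92 spike-ins that had reads in all of them. The 19037 of 51826 genes kept by filterByExpr entered glmQLFit and glmQLFTest of edgeR 4.0.16 (R 4.3.3), with a coefficient per condition, two-sided, with Benjamini-Hochberg adjustment. Standard errors are the fold change over the square root of F. The spike-ins took 1.35% ± 0.07 of the counts in CHp2 and 1.41% ± 0.08 in N72h (SD, n = 3, exact permutation p = 0.5, where 0.1 is the smallest this design allows). Where every library of a group had 3 counts or fewer, the group is at the floor and the fold is a bound against 3 counts per library. Nothing says that the cultures of the parental line were started separately, so p-values measure a spread between libraries. That spread was estimated within the conditions of all 32 libraries, the other lines included, and not from the 6 libraries alone. Between replicates chi-square per gene was 3.98 to 10.5, against about 1 for counting noise, so no libraries were duplicates. IDs without a symbol numbered 193 and held 0.0259% of the counts.

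The genes named are a fixed set of marker genes, the 4 called genes per list and direction with the largest log2 fold change, the called *Hox* genes, the 12 genes per direction with the largest fold change (at least 10 counts in each library of the higher group, groups not overlapping) and the 5 per direction with the largest difference of mean FPKM; genes named as uncalled, at or under 1 FPKM or in the closing section were chosen after their values were seen. The members and lists were chosen with earlier results of these data known. Numbers of replicates are not shared by the groups, and the clonal line was used as replicate block in an alternative. Alternatives were TMM and median-of-ratios factors on gene counts, the total spike-in count, DESeq2 1.42.0's Wald test, a fit of the 6 libraries, other filters, no FPKM minimum, a minimum fold change, the parental line alone and leaving out each library. On simulated data with 200 of 19037 genes changed, the test recovered 78% of changes of 1 and 95% of changes of 2 on the log2 scale with 12 false calls. Promoters and miRNAs are from RefSeq (GRCm38.p6). Plots were made with matplotlib 3.10.9 in Python 3.11.15. The other lines of the series enter the fit but are not otherwise analysed here. Some listed genes enter the counts but are not reported here by name.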

Additional observations from a re-analysis of the deposited data

How the results depend on the processing

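Under the 17 alternatives no named gene that was called changed direction, and no gene called in the main analysis was called in the opposite direction. The uncalled *Tbx6* (log2 fold change 0.20, lowest −0.08) and *Tcf7* (−0.10, highest 0.03) changed sign. For 167 named genes 2703 results kept their side of the threshold, 126 lost it and 5 gained it. The counts of 2412 higher and 2091 lower became 2779 and 3029 with TMM factors, 2806 and 3008 with median-of-ratios factors on gene counts, 2508 and 2172 with DESeq2, 2739 and 2498 in a fit of the 6 libraries, and 2557 and 2386 in that fit with the clonal line as replicate block. Leaving out 1 library gave 1781 to 2381 higher and 1600 to 2026 lower. With an absolute log2 fold change of at least 1 they were 768 and 548, by construction, and with the parental line alone, which has fewer libraries, 1997 and 1339. Without an FPKM minimum 17 *Hox* genes were higher in place of 6, and 3290 and 2512 genes were called. TMM moved the median of all 19037 tested genes from 0.0456 to 0.0037 (log2), a shift under 0.1. Counts within lists were within 1.5 times the main count in 994 results and beyond it in 94. With the block the calls of *Pou5f1* and *Ccng1* were lost and *Sox3* was called, as it also was in the fit of the 6 libraries. With a minimum count of 50, which tests fewer genes, the median over tested members turned from 1.09 to −1.32 for lateral, cardiac and extraembryonic mesoderm, from 0.24 to −0.69 for secreted antagonists (−0.17 with no filter), from −0.14 to 1.46 for endothelial and blood genes and from 0.01 to −1.32 for endoderm (−0.65 with no filter). The medians of the beta-catenin core, hindbrain, neural progenitor, general pluripotency and adhesion lists, and that of all genes without CHp2 4 (−0.0069), also changed sign under at least 1 alternative. The limits are depth in CHp2 (from 12588312 counts), a single clonal line in each group, 3 libraries a group, and time and passaging that go with the inhibitor.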

Other observations

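Of 11 basement membrane genes, listed after their values were seen, 6 were lower in CHp2 and 1 higher. *Lama1*, a laminin chain, had 1.16, 0.930 and 3.18 FPKM in CHp2 and 10.2, 10.6 and 34.4 FPKM in N72h (log2 fold change −3.35 ± 0.51, edgeR adjusted p = 1.73e-06). *Col4a1*, a collagen IV chain, had 3.4, 3.56 and 9.01 FPKM in CHp2 and 15.8, 16.8 and 45.3 FPKM in N72h (log2 fold change −2.24 ± 0.56, edgeR adjusted p = 0.00172). *Cubn*, the cubilin receptor of visceral endoderm, had 0.0266, 0.0345 and 0.702 FPKM in CHp2 and 2.45, 2.67 and 8.84 FPKM in N72h (log2 fold change −4.23 ± 0.83, edgeR adjusted p = 9.51e-05). The third value of each group is the clonal line RGd2-2, which was the highest of its group in both conditions for all 3 genes, while the groups still did not overlap. *Gata4* and *Sox17*, factors of endoderm, had 0.640 FPKM in CHp2 and 1.64 FPKM in N72h and 0.123 FPKM in CHp2 and 0.408 FPKM in N72h in mean and were not called. *Lrp2* (megalin), the partner of cubilin, had 5.99, 5.08 and 4.54 FPKM in CHp2 and 26.4, 30.6 and 26 FPKM in N72h (log2 fold change −2.33 ± 0.18, edgeR adjusted p = 1.27e-13), with no such difference between lines. With 1 library of the clonal line in each condition the difference between lines was not tested.

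Genes of glucose use, also listed after their values were seen, went both ways. The glucose transporter *Slc2a3* (GLUT3) had 339, 330.2 and 259.6 FPKM in CHp2 and 85.5, 90.4 and 108 FPKM in N72h (log2 fold change 1.79 ± 0.13, edgeR adjusted p = 7.52e-15), whereas *Slc2a1* (GLUT1) had 140.1, 137 and 105 FPKM in CHp2 and 285, 300.1 and 296 FPKM in N72h (log2 fold change −1.12 ± 0.12, edgeR adjusted p = 1.96e-09). *Pdk1*, which restrains the entry of pyruvate into mitochondria, was higher (log2 fold change 1.62 ± 0.10, edgeR adjusted p = 4.82e-16), and *Slc16a3*, a lactate exporter, lower (log2 fold change −1.16 ± 0.15, edgeR adjusted p = 3.32e-08). Of 21 genes of glycolysis and glucose uptake 4 were higher and 6 lower, beside the 19.8% and 17.2% of all genes. Of 9 mitochondrially encoded protein genes at 1 FPKM 6 were higher and none was lower, with a median log2 fold change of 0.62.

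Among imprinted genes, listed after their values were seen, *Peg10*, a retrotransposon-derived gene of placenta, had 229, 223 and 258 FPKM in CHp2 and 16.7, 18.1 and 28.2 FPKM in N72h (log2 fold change 3.57 ± 0.27, edgeR adjusted p = 4.01e-14), and *Plagl1*, described above, was higher too. The noncoding RNAs of the *Dlk1*-*Meg3* region were lower, *Meg3* with 9.67, 9.6 and 7.48 FPKM in CHp2 and 22.9, 18.6 and 14.8 FPKM in N72h (log2 fold change −0.98 ± 0.18, edgeR adjusted p = 4.62e-05) and *Rian* with a log2 fold change of −0.73 ± 0.17. Of 22 imprinted genes at 1 FPKM 4 were higher and 6 lower, beside the 19.8% and 17.2% of all genes. Of 10 tubulin genes 1 was higher and 5 were lower.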
